A study of Mus musculus with 6 samples.

Results

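The axoneme, the microtubule core of a motile cilium, is held together and tuned by accessory proteins whose genes carry the names Cfap (cilia and flagella associated protein), Rsph (radial spoke head), Tekt (tektin) and Drc (dynein regulatory complex). These genes were described in the lungs of 9 to 10 week old wild-type C57BL/6 mice that received SS-31, a peptide directed to mitochondria, together with cigarette smoke, against mice given smoke alone. All protein-coding genes with such a symbol were taken, plus the coiled-coil gene Ccdc17, which was added by name with its earlier result known. This gave 48 members among the 55573 genes of the count table. The SS-31H_CS group (n = 3 libraries) was exposed to smoke and given 5 mg/kg SS-31 once a day. The CS group (n = 3 libraries) was exposed to smoke for 4 weeks, on 5 days a week, with 2 exposures of 75 min on each of those days; the labels spell out this schedule for the CS group only. Both groups carry smoke and neither is a smoke-free background. Nothing in the labels says that each library is a separate mouse, so p-values measure the spread between libraries, which may in part be technical.

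A motile axoneme of the airway has a ring of outer doublet microtubules around a central pair. Dynein arms on the doublets make them slide. The central pair and its projections signal through the radial spokes to the dyneins, the nexin-dynein regulatory complex (N-DRC) links neighbouring doublets, and microtubule inner proteins, tektins among them, line the doublet lumen. In the lung these parts are best known from the multiciliated cells of the airway, which move mucus outward; several members (RSPH1, RSPH4A, RSPH9 and DRC1 in humans) are genes of primary ciliary dyskinesia, a disease of immotile or weakly beating cilia. Their transcription depends on FOXJ1 and on RFX factors, which bind a palindromic element called the X-box.

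The files hold total counts of 15611925 to 17360052 per library, of which the 48 members took 0.0937 to 0.149% in SS-31H_CS lungs and 0.0584 to 0.0664% in CS lungs. In CPM, the count per 1e6 counts of the scaled library, 3 counts corresponded to 0.172 to 0.185. Of the 48 members, 45 passed a filter on low counts and were tested, and 3 did not (Rsph6a, Cfap97d1 and Tekt3). Lung identity was checked on alveolar genes. The surfactant gene Sftpc averaged 14226 CPM in SS-31H_CS lungs and 13302 CPM in CS lungs. Sftpb, another surfactant gene, averaged 87.2 CPM in SS-31H_CS lungs and 105 CPM in CS lungs. Of 6 alveolar type 2 markers 0 were at 0 in all libraries. Of 6 alveolar type 1 markers 1, Pdpn, had 0 counts in all 6 libraries and was not tested. The ciliated cell regulator Foxj1 was present in every library.

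The start regions of the members are shown first because the factors named above act through such elements. RefSeq start windows (GRCm38.p6, 250 bases before to 50 after a start) were at hand for 38 of the 48 members, in 45 windows. An X-box, searched on both strands with up to 3 bases between its half-sites, was found in 8 of the 45 member windows (17.8%), against 1.53% of all 32851 windows. The half-site GTTGCC alone, which overlaps the X-box, was in 37.8% of member windows against 12.5% of all windows, and the forkhead element GTAAACA in 6.67% against 3.65%. The unrelated element TGACTCA was in 2.22% of member windows and in 5.20% of all windows. These are matches of letters and not measured binding. Stretches that hold a match follow, written 5′ to 3′ on the strand of the gene, with the X-box in capitals (in Cfap43 the forkhead element) and the last base at or before the start site. They are from Cfap44 (chr16:44394732-44394798, plus strand), Cfap45 (chr1:172521071-172521129, plus), Cfap58 (chr19:47937613-47937680, plus), Cfap99 (chr5:34288590-34288657, plus), Tekt2 (chr4:126325690-126325757, minus), Cfap298 (chr16:90934889-90935077, minus, with 2 X-boxes) and Cfap43 (chr19:47837395-47837456, minus).
Cfap44: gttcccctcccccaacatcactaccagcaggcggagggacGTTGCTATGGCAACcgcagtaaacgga
Cfap45: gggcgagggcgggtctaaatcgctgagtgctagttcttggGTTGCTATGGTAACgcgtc
Cfap58: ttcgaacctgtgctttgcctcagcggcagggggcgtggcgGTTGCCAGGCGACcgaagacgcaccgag
Cfap99: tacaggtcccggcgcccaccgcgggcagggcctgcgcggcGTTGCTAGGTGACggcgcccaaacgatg
Tekt2: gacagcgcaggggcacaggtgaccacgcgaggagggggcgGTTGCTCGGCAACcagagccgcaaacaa
Cfap298: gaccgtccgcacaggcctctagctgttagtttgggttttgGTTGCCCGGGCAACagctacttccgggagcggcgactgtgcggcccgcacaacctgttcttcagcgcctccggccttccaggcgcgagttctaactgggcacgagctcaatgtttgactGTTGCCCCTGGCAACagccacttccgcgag
Cfap43: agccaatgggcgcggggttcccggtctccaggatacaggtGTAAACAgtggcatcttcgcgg
The seventh member with an X-box was Rsph3b, where GTTGCTCGGCAAC, the same letters as in Tekt2, began 9 bases past the start (chr17:6948335-6948347, minus). The log2 fold changes of these 7 members ran from 0.30 in Cfap298 and 0.46 in Rsph3b to 1.17 in Cfap99 and 1.27 in Cfap44. The forkhead element was in the windows of 3 members: Cfap43 (1.49), Cfap20 (0.27) and Tekt3, which had too few counts to test. It is printed for Cfap43 alone. Members with a match were not compared with members without a match, and a link between a match and the difference was not tested.

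The members as a group were higher with SS-31. Of the 45 tested, 43 had a positive log2 fold change (SS-31H_CS over CS), against 51.4% of the 16965 genes tested, and their median was 1.03 (2.05-fold), against 0.01 over all genes. In whole lung RNA, a change in the number of cells that express these genes and in their RNA per cell cannot be told apart. By edgeR's quasi-likelihood test, with p adjusted by Benjamini-Hochberg over all genes and a threshold of 0.05, Cfap43 and Ccdc17 rose and 0 members fell, where 0.0707% of all genes rose and 0.0825% fell. Ccdc17 was a member because of that result, so its call is a description; without it 1 of 44 tested members rose and the median was 1.01. At an unadjusted p under 0.05, 39 of 45 members were higher and 0 lower, against 9.93% and 8.23% of all genes. DESeq2 called 30 of the 45 as higher and 0 as lower, against 3.29% and 2.45% of all genes, and limma voom called 0, against 0.0177% in each direction. In 37 of 45 members every SS-31H_CS library lay above every CS library, against 13.6% of all genes, and in 0 below, against 12.4%. The median correlation between pairs of members over the 6 libraries was 0.906, over 990 pairs that share the same libraries. This value includes the difference between the groups, and correlation within the groups was not taken. The counts above are not those of independent genes. The counts given below for classes and lists of genes stand against these same shares of all genes.

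**Figure D1:**
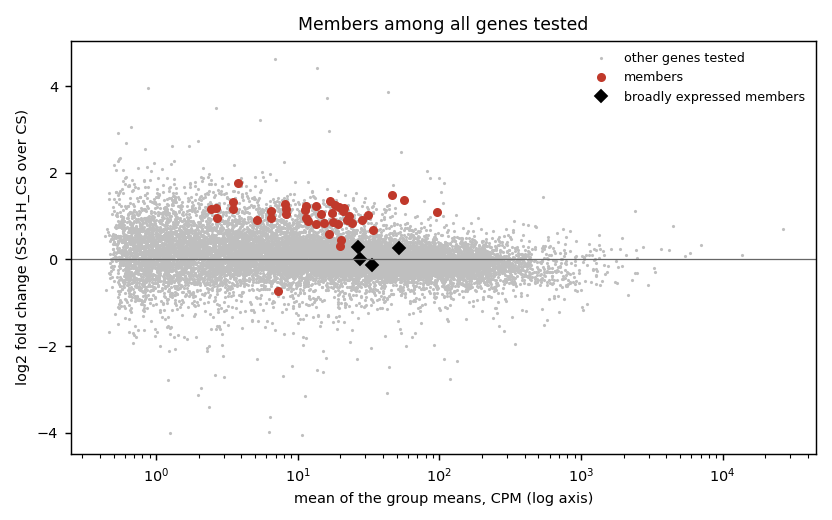
Log2 fold change (SS-31H_CS over CS, y axis) against the mean CPM of the groups (x axis, log) for the 16965 genes tested, with the 45 tested members in red and the 4 broadly expressed ones as black diamonds. Most members have positive values, around a median of 1.03, while others such as Rsph3a (0.30) and Rsph3b (0.46) lie within the bulk of the genes, the diamonds lie near 0, and Tekt5 is the red point below 0 at -0.74.

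The libraries did not contribute equally. SS-31H_CS replicate 3 had the highest level of all 6 libraries in 42 of 45 tested members. The summed level of the 48 members was 935, 991 and 1482 CPM in SS-31H_CS replicates 1, 2 and 3, against 593, 660 and 620 CPM in CS replicates 1, 2 and 3. The CS libraries stood close together and below all 3 SS-31H_CS libraries. The SD was a median of 31.3% of the mean in SS-31H_CS and 15.1% in CS, and it was the larger in SS-31H_CS in 39 of 45 members. Without SS-31H_CS replicate 3 the median log2 fold change of the members was 0.69, with 30 of 45 higher at an unadjusted p under 0.05. Over all genes that fit had a median of 0.0059, and its share of genes higher at that p was not taken.

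**Figure D2:**
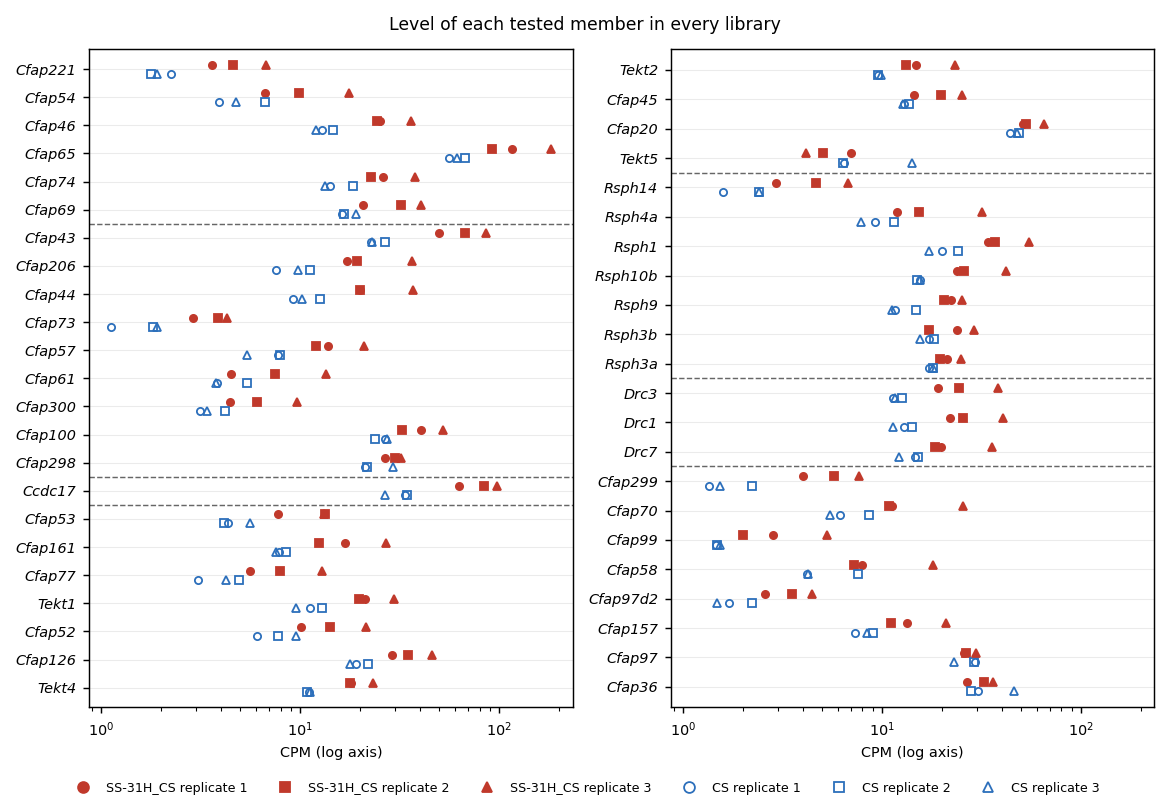
CPM (x axis, log) of each tested member in every library, with SS-31H_CS in filled red and CS in open blue symbols, and replicates 1, 2 and 3 as circles, squares and triangles. Dashed lines part the classes, which run down the left column as central apparatus, dynein and spoke regulation, Ccdc17 and microtubule inner proteins, and go on in the right column with more microtubule inner proteins, radial spoke, N-DRC and other Cfap genes. The red triangle is rightmost in 42 of 45 rows.

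Cfap43 (ENSMUSG00000044948, chromosome 19, 47736857 to 47919287) encodes part of the tether that holds an inner-arm dynein to the doublet, as worked out in Chlamydomonas and Tetrahymena. It had 49.8, 67.8 and 85.7 CPM in SS-31H_CS lungs, against 22.8, 26.7 and 23.0 CPM in CS lungs. The lowest SS-31H_CS library was well above the highest CS library. On the log2 scale it was higher by 1.49 (SE 0.19, adjusted p = 0.0467). Ccdc17 (ENSMUSG00000034035, chromosome 4, 116596654 to 116600266), a coiled-coil gene, had 62.9, 84.0 and 98.0 CPM in SS-31H_CS lungs, against 33.8, 34.5 and 26.7 CPM in CS lungs. Its groups were likewise apart, by 1.37 on the log2 scale (SE 0.18, adjusted p = 0.0467). Neither passed when any 1 of the 6 libraries was left out: the adjusted p then ran from 0.0640 to 0.182 for Cfap43 and from 0.0758 to 0.167 for Ccdc17, while the log2 fold changes ran from 1.28 to 1.66 and from 1.21 to 1.52. Exons of C530005A16Rik, a gene on the other strand, cover 33.1% of the exon bases of Ccdc17. That gene was at 6.33, 6.54 and 7.41 CPM in SS-31H_CS lungs, against 4.13, 3.27 and 3.15 CPM in CS lungs, far under Ccdc17; the strand setting of the counting is not given in the sources used here.

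Other genes of dynein and spoke regulation lay close behind. All 9 of this class were tested, 1 rose, 8 of 9 were higher at an unadjusted p under 0.05, and the median was 1.15. Cfap44, the partner of Cfap43 in the tether, had 20.1, 20.04 and 37.0 CPM in SS-31H_CS lungs and 9.21, 12.6 and 10.2 CPM in CS lungs (log2 fold change 1.27, SE 0.27, adjusted p = 0.0952). The highest value was again in SS-31H_CS replicate 3, without which the log2 fold change was 0.90. Cfap57, needed for a subset of inner dynein arms in Chlamydomonas, had 13.8, 12.1 and 20.9 CPM in SS-31H_CS lungs and 7.73, 7.97 and 5.43 CPM in CS lungs (1.15, adjusted p = 0.101), with no overlap. The remaining members of the class, apart from Cfap298, had log2 fold changes of 0.68 to 1.36.

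The central apparatus genes were uniform. Of 6 tested, 0 passed over all genes (lowest adjusted p = 0.0736), 6 were higher at an unadjusted p under 0.05 and 6 by DESeq2, and the log2 fold changes ran from 0.85 to 1.33 with a median of 1.10. Cfap46, which with Cfap54, Cfap74 and Cfap221 forms one projection of the central pair in Chlamydomonas, had 25.2, 24.5 and 36.0 CPM in SS-31H_CS lungs and 12.9, 14.7 and 12.0 CPM in CS lungs (1.11, SE 0.18, adjusted p = 0.0736). All 3 SS-31H_CS libraries lay above the CS range. Cfap65, known from the sperm flagellum in mice, was the most counted member, at 117, 92.5 and 182 CPM in SS-31H_CS lungs and 56.0, 67.2 and 61.3 CPM in CS lungs (1.09, adjusted p = 0.0989). Cfap221, whose loss causes ciliary dyskinesia in mice, was low, with 3.61, 4.58 and 6.76 CPM in SS-31H_CS lungs and 2.24, 1.78 and 1.91 CPM in CS lungs (1.33, adjusted p = 0.103). Cfap54 was the only gene of the 6 whose groups overlapped.

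Microtubule inner proteins were more mixed. Of 12 members 11 were tested, 0 passed over all genes (lowest adjusted p = 0.0808), 9 were higher at an unadjusted p under 0.05 and 8 by DESeq2, and the median was 0.90. Tekt1, a filament-forming tektin, had 21.2, 19.9 and 29.6 CPM in SS-31H_CS lungs and 11.3, 12.9 and 9.51 CPM in CS lungs (1.07, SE 0.20, adjusted p = 0.0808). Tekt4 had 17.97, 17.9 and 23.2 CPM in SS-31H_CS lungs and 11.2, 10.8 and 11.2 CPM in CS lungs (0.83, SE 0.16, adjusted p = 0.0808). In both tektins the groups were apart, and in Tekt4 the CS libraries were almost equal. Cfap126, also called Flattop, which lines the doublet and positions basal bodies in mice, had 29.1, 35.1 and 46.3 CPM in SS-31H_CS lungs and 19.1, 22.0 and 17.9 CPM in CS lungs (0.90, adjusted p = 0.0893).

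Tekt5, a tektin known from sperm, pointed the other way without passing the test. It had 6.97, 5.07 and 4.18 CPM in SS-31H_CS lungs and 6.49, 6.42 and 14.2 CPM in CS lungs (log2 fold change -0.74, SE 0.36, adjusted p = 0.320). The groups overlapped, and only CS replicate 3 stood out; without it the log2 fold change was -0.26. Over the 6 libraries, the level of Tekt5 ran against the mean of the ciliated marker genes (Pearson's r = -0.778, given as a description). Of the 45 members, 41 had an r over 0.8 with that mean. These r values include the difference between the groups. Tekt3, a further tektin, had only 7, 8 and 9 counts in SS-31H_CS libraries and 5, 3 and 14 counts in CS libraries, too few to test.

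Of 8 radial spoke members 7 were tested, 0 passed over all genes (lowest adjusted p = 0.0808), 6 were higher at an unadjusted p under 0.05 and 4 by DESeq2, and the median was 0.99. Rsph9, a spoke head protein, had 22.3, 20.5 and 25.3 CPM in SS-31H_CS lungs and 11.6, 14.8 and 11.3 CPM in CS lungs (0.85, SE 0.16, adjusted p = 0.0808). Rsph1, another head protein, had 34.3, 37.0 and 54.8 CPM in SS-31H_CS lungs and 20.1, 24.1 and 17.4 CPM in CS lungs (1.03, SE 0.20, adjusted p = 0.0889). Both were apart between groups in every library. Rsph10b had 23.9, 25.8 and 42.2 CPM in SS-31H_CS lungs and 15.6, 15.02 and 15.6 CPM in CS lungs (0.99, adjusted p = 0.0996). Part of its exons overlaps Pms2, a mismatch repair gene on the same strand (log2 fold change -0.08).

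The stalk genes Rsph3a and Rsph3b, named here after their values were seen, had the smallest log2 fold changes among the spoke genes, 0.30 (adjusted p = 0.287) and 0.46 (adjusted p = 0.265). Rsph3a had 21.3, 19.7 and 24.9 CPM in SS-31H_CS lungs and 17.3, 18.2 and 18.1 CPM in CS lungs. Rsph3b had 23.8, 17.4 and 28.9 CPM in SS-31H_CS lungs and 17.3, 18.3 and 15.5 CPM in CS lungs, with overlapping groups. They are near copies on chromosome 17: 54.4% of the 50-base stretches of Rsph3a transcripts occur in Rsph3b, and 54.3% of those of Rsph3b in Rsph3a, so reads from the one may be lost or assigned to the other, and their separate levels are uncertain. Rsph6a, the sperm paralog of Rsph4a, had 0 counts in all 6 libraries, which allows up to 0.176 to 0.183 CPM in SS-31H_CS libraries and 0.172 to 0.185 CPM in CS libraries by counting error alone. Rsph4a itself, the head protein of airway cilia, lay 1.05 higher on the log2 scale (adjusted p = 0.195).

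All 3 N-DRC genes were higher at an unadjusted p under 0.05 with no overlap between groups, 2 of 3 by DESeq2 and 0 over all genes by edgeR. Drc1, the scaffold subunit, had 22.0, 25.5 and 40.6 CPM in SS-31H_CS lungs and 12.9, 14.2 and 11.4 CPM in CS lungs (1.19, SE 0.23, adjusted p = 0.0889). Drc3 had 19.2, 24.6 and 38.5 CPM in SS-31H_CS lungs and 11.4, 12.6 and 11.6 CPM in CS lungs (1.20, adjusted p = 0.0916). Drc7 had 19.9, 18.5 and 35.9 CPM in SS-31H_CS lungs and 14.6, 15.1 and 12.2 CPM in CS lungs (0.82, adjusted p = 0.174; 0.45 without SS-31H_CS replicate 3). The same library was highest in all 3 genes, and the other SS-31H_CS libraries were closer to CS in Drc7 than in Drc1 or Drc3.

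**Figure D3:**
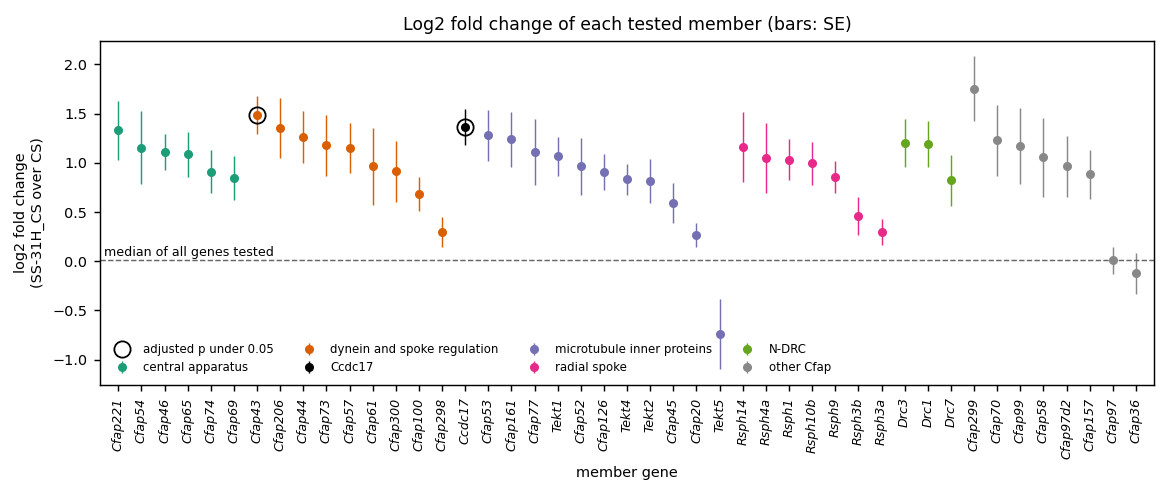
Log2 fold change (SS-31H_CS over CS) of the 45 tested members, as points with SE bars, coloured by class and sorted within it, with the median of all genes tested (0.01) as a dashed line. The circled points are Cfap43 and Ccdc17, and the members under 0.50 are Cfap298, Cfap20, Tekt5, Rsph3b, Rsph3a, Cfap97 and Cfap36.

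The broadly expressed members are described apart. Cfap20 (a doublet protein that nearly all cells express), Cfap36, Cfap97 and Cfap298 (a factor of dynein arm assembly) were listed as such with earlier results of these data known. Their small differences are therefore a description and not an independent contrast. Of the 4, 0 had an unadjusted p under 0.05 by edgeR and 0 passed by DESeq2 or voom, and their median log2 fold change was 0.14. Cfap20 had 51.2, 53.0 and 65.5 CPM in SS-31H_CS lungs and 44.0, 49.1 and 48.1 CPM in CS lungs (0.27, SE 0.12, adjusted p = 0.301). Cfap298 had 26.6, 29.9 and 32.2 CPM in SS-31H_CS lungs and 21.2, 21.8 and 29.2 CPM in CS lungs (0.30, adjusted p = 0.352), and 53.6% of its exon bases lie under genes on the other strand. The groups of Cfap20 were apart by little, and those of Cfap298 overlapped. Cfap36, which binds the small GTPase ARL3, had 26.9, 32.6 and 36.4 CPM in SS-31H_CS lungs and 30.3, 28.1 and 46.2 CPM in CS lungs (-0.12, SE 0.20, adjusted p = 0.774; 0.13 without CS replicate 3). Cfap97 had 25.8, 26.4 and 29.9 CPM in SS-31H_CS lungs and 29.5, 29.0 and 23.2 CPM in CS lungs (0.01, SE 0.13, adjusted p = 0.975), and its sign turned with other scalings. Outside the broad list and the list of germ cell genes, 37 of 38 tested members were higher at an unadjusted p under 0.05. The share over all genes was 9.93%, and the median of the 38 was 1.06. These lists were made with earlier results known, so that count is a description too.

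Genes known mainly from male germ cells fell on both sides. Cfap299, described in mouse testis, differed most of all members, by 1.75 on the log2 scale (SE 0.33, adjusted p = 0.0808), at 4.02, 5.74 and 7.65 CPM in SS-31H_CS lungs and 1.36, 2.24 and 1.54 CPM in CS lungs. Cfap97d2 had 2.60, 3.54 and 4.47 CPM in SS-31H_CS lungs and 1.71, 2.24 and 1.48 CPM in CS lungs (0.96, adjusted p = 0.176). In both the groups were apart, though at low levels. Over the 6 libraries, Cfap299 had an r of 0.976 and Cfap97d2 of 0.974 with the ciliated marker mean, given as a description. Cfap97d1 had 0, 1 and 0 counts in SS-31H_CS libraries and 3, 0 and 0 counts in CS libraries. Of 7 markers of male germ cells, protamine genes among them, 0 reached the filter, 3 were at 0 in all libraries, and their summed level was 0 to 0.306 CPM in SS-31H_CS lungs and 0.0573 to 0.494 CPM in CS lungs. Among the other Cfap genes, Cfap157, a target of FOXJ1 in mice, had 13.4, 11.1 and 21.1 CPM in SS-31H_CS lungs and 7.32, 9.00 and 8.46 CPM in CS lungs (0.88, adjusted p = 0.149). Cfap70 had 11.3, 10.9 and 25.5 CPM in SS-31H_CS lungs and 6.197, 8.65 and 5.50 CPM in CS lungs (1.23, adjusted p = 0.157; 0.70 without SS-31H_CS replicate 3).

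Levels per length, from the authors' FPKM (mean of the 6 libraries), placed Rsph1 first at 22.9, then Ccdc17 at 21.7, Cfap298 at 16.9, Cfap126 at 16.01, Cfap65 at 12.3 and Cfap36 at 12.1. Rsph1 was at 31.1 FPKM in SS-31H_CS lungs and 14.7 FPKM in CS lungs, Ccdc17 at 31.6 and 11.8 FPKM in the same groups, and Cfap298 at 18.9 and 14.8 FPKM, so that Cfap298 and Rsph1 were level in CS lungs within their spread, and Rsph1 and Ccdc17 were the highest pair in SS-31H_CS lungs. In all, 9 members reached a mean of 10 FPKM and 6 stayed under 1, among them the long gene Cfap54 at 0.568, which in CPM carried 11.4 ± 5.64 CPM in SS-31H_CS lungs and 5.12 ± 1.44 CPM in CS lungs (SD, n = 3 each).

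The partner genes of the same structures, which carry other names, lay in the same range. Their lists were made with earlier results of these data known, so their values are a description and not an independent contrast. Over all genes, 9.93% were higher and 8.23% lower at an unadjusted p under 0.05, and DESeq2 called 3.29% as higher. Of 23 further radial spoke and N-DRC genes, 21 were higher and 0 lower at an unadjusted p under 0.05 and 13 higher by DESeq2, with 0 over all genes by edgeR (lowest adjusted p = 0.0728) and a median of 1.07. The N-DRC subunit Fbxl13 differed by 1.71 on the log2 scale (adjusted p = 0.0728) and the spoke gene Nme5 by 1.45 (adjusted p = 0.0808). Of 8 central apparatus partners, 8 were higher at an unadjusted p under 0.05 and 6 by DESeq2, with 0 over all genes (lowest adjusted p = 0.0781) and a median of 1.01; Spef2 had 1.44. Of 12 tested partners among the microtubule inner proteins, 11 were higher at an unadjusted p under 0.05 and 6 by DESeq2, with 0 over all genes (lowest adjusted p = 0.0554) and a median of 0.96; 1700007K13Rik had 1.21. Medians of the partners thus fell within the range of the member classes, 0.90 to 1.19 without Ccdc17.

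Markers of ciliated cells moved with the members. This list too was made with earlier results of these data known, so its values are a description. Of 15 tested markers that are not members, of which Ccdc153 is also among the N-DRC and spoke partners above, 14 were higher at an unadjusted p under 0.05 and 12 by DESeq2, with 0 over all genes by edgeR (lowest adjusted p = 0.0554) and a median of 1.17. Foxj1 had 110, 141 and 199 CPM in SS-31H_CS lungs and 60.97, 67.9 and 52.6 CPM in CS lungs (1.31, adjusted p = 0.0728). The markers' summed level was 1955 to 3111 CPM in SS-31H_CS lungs and 1679 to 1759 CPM in CS lungs, and 0 of the 16 were at 0 in all libraries. Most of that sum came from Sec14l3 (1377 ± 415 CPM in SS-31H_CS lungs and 1182 ± 118 CPM in CS lungs, SD, n = 3 each), which was the tested marker without an unadjusted p under 0.05 (log2 fold change 0.22, adjusted p = 0.608), and the sum differed less (ratio 1.38) than the median marker (2.25-fold). Set against the markers in each library, the mean log2 level of the 38 tested members outside the broad and germ cell lists lay at -1.05 ± 0.05 in SS-31H_CS libraries and at -0.97 ± 0.09 in CS libraries (SD, n = 3 each). The difference was -0.08, where the median log2 fold change of these 38 members was 1.06. The markers include Foxj1 itself, and this comparison cannot tell cell number and RNA per cell apart. Relative to the marker mean, the log2 differences of the single members had a median of -0.04 and ran from -0.76 in Rsph3a to 0.40 in Cfap43, given as a description with no test. The part of ciliated cell number in the members' result was not tested.

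**Figure D4:**
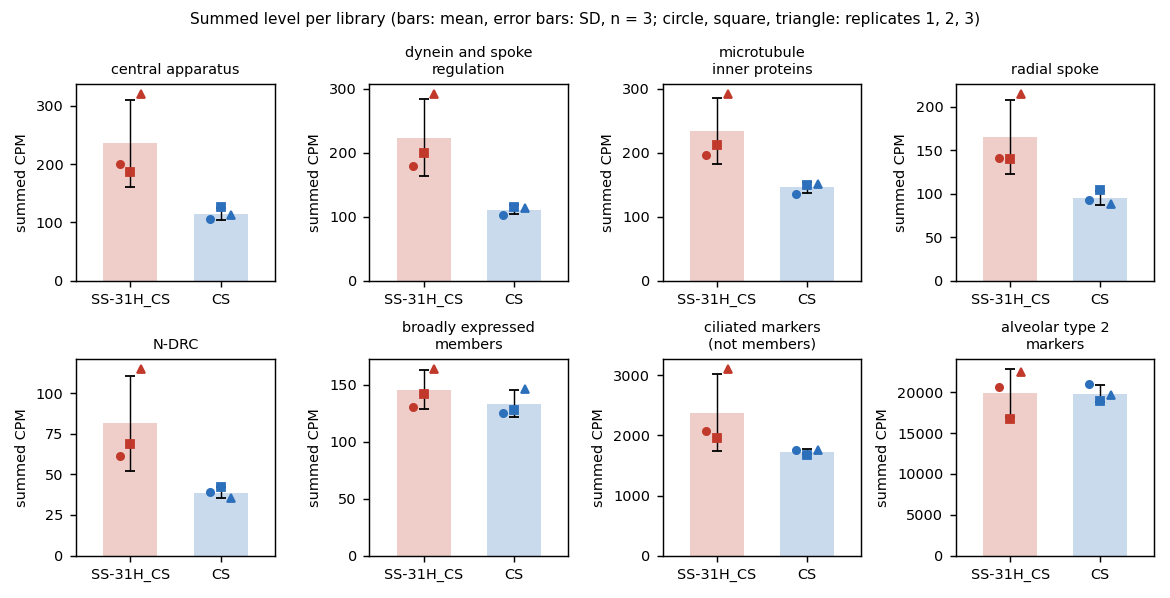
Summed CPM per library of 5 member classes, of the 4 broadly expressed members, of 16 ciliated cell markers that are not members and of 6 alveolar type 2 markers, with bars for the mean and error bars for the SD (n = 3). The 5 class panels show every SS-31H_CS library above every CS library, with SS-31H_CS replicate 3 (triangle) highest, and the alveolar panel shows means of 19940 CPM in SS-31H_CS and 19840 CPM in CS. Most of the alveolar sum is Sftpc (14226 CPM in SS-31H_CS and 13302 CPM in CS). Of the 6 alveolar type 2 markers, 1 had a positive and 5 a negative log2 fold change.

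Of 8 regulators of ciliogenesis, which include the ciliated markers Foxj1 and Mcidas counted above, 7 were tested, and 4 were higher at an unadjusted p under 0.05 and 0 lower, with 0 over all genes (lowest adjusted p = 0.0728, that of Foxj1) and a median of 0.57. Other cell types gave the following values, where 9.93% of all genes were higher and 8.23% lower at an unadjusted p under 0.05. Of 7 club cell markers 6 were higher at an unadjusted p under 0.05 and 1, Scgb3a2, rose over all genes, with a median of 1.001. Their summed level was 39360, 28340 and 64170 CPM in SS-31H_CS replicates 1, 2 and 3. The CS replicates, in the same order, had 29860, 24970 and 24390 CPM. These sums overlapped between the groups, and SS-31H_CS replicate 3 was the highest, as in most members. Of 5 tested basal and goblet cell genes 2, Muc5ac and Spdef, were higher at an unadjusted p under 0.05, with a median of 0.85. Muc5ac, a mucin gene, rested on 1 library, with 1.36, 75.9 and 1.29 CPM in SS-31H_CS lungs and 1.53, 1.03 and 1.05 CPM in CS lungs, and its groups overlapped. The same library, SS-31H_CS replicate 2, held 397 CPM of the mucin gene Muc5b, against 46.9 and 19.9 CPM in the other SS-31H_CS libraries and 38.8 to 62.6 CPM in CS libraries, a gene named after its values were seen. General epithelial genes (median 0.11, with 1 of 6 higher and 1 lower at an unadjusted p under 0.05), alveolar type 2 (-0.17, 1 of 6 lower), alveolar type 1 (-0.32, 0 of 5 tested) and mesothelial markers (-0.02, 0 of 5) had medians nearer 0 than the members. The median of the club genes was nearer to the members' 1.03 than to 0. That of the basal and goblet genes, 0.85, was the value of Spdef, at 2.59 CPM in SS-31H_CS lungs and 1.43 CPM in CS lungs. The basal genes Trp63 (0.47, adjusted p = 0.578) and Krt15 (0.07, adjusted p = 0.964) lay lower. The basal and goblet genes summed to 51.7, 480 and 24.9 CPM in SS-31H_CS replicates 1, 2 and 3. In CS replicates 1, 2 and 3 the sum was 67.5, 42.1 and 60.9 CPM. The part of these cell types in the members' result was not tested.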

How the data were processed

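Lung RNA was sequenced in 6 libraries (3 SS-31H_CS, 3 CS). The authors deposited raw counts per Ensembl gene, with FPKM values of these libraries, per the file headers; the submitters' processing notes name cutadapt 1.9.1, HISAT2 2.0.1, HTSeq 0.6.1 and GRCm38. Symbols, the protein-coding label and coordinates came from GENCODE M21 (GRCm38, where 55480 genes matched and 93 did not). The structural classes came from a separate list and not from GENCODE, and members not on it were placed under other Cfap. The members and gene lists were chosen with earlier results of these data known.

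SS-31H_CS was set against CS with edgeR 4.0.16 (R 4.3.3): TMM, low-count filter (minimum count 10, total 15), quasi-likelihood test, Benjamini-Hochberg adjustment over the 16965 genes tested, two-sided, threshold 0.05. CPM used TMM-scaled library sizes; log2 levels had a prior count of 2. SE was the log2 fold change over the root of F. The fits were tested on simulated data. Alternatives were RLE or no scaling, no filter, 1 CPM in 3 libraries, DESeq2 1.42.0, limma 3.58.1 (voom; trend on log2 FPKM with pseudocounts 1 and 0.1, mean FPKM of at least 0.5 or no such filter), a replicate block, and each library left out. Named members were those past the threshold, the 3 lowest p and the highest FPKM in each class, members with a negative value and those on the broad and germ cell lists. Floors of 3 counts cover counting error only.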

Additional observations from a re-analysis of the deposited data

How the results depend on the processing

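With 3 libraries a group, single calls depended on the processing far more than directions did. The number of changed genes, 26, and of changed members, 2, was 12 and 0 with library size alone, 648 and 23 without the low-count filter, 939 and 30 by DESeq2, 6 and 0 by voom, 6 and 0 on log2(FPKM + 1), 5 and 0 on log2(FPKM + 0.1), 4 and 0 on log2(FPKM + 1) without the FPKM filter, and 0 and 0 with the replicate number as a block. Leaving out single libraries gave 1 to 15 changed genes and 0 changed members in each of the 6 fits, in fits with fewer samples; beyond that the cause was not tested. The count of members higher at an unadjusted p under 0.05 stayed between 30 and 42, and their median log2 fold change between 0.69 (without SS-31H_CS replicate 3) and 1.16. The median over all genes ran from -0.00145 to 0.0663 in these fits. The share of all genes higher at that p was taken in the main fit alone, at 9.93%. Of 720 member values under 16 alternatives, 5 turned sign, none of them called: Cfap36 at 0.13 without CS replicate 3 (-0.26 to 0.13 over single libraries left out), and Cfap97 at -0.0022 with RLE factors, -0.0078 by DESeq2, -0.06 without SS-31H_CS replicate 3 and -0.10 without CS replicate 3 (up to 0.064 with CS replicate 1 left out). Deviations of same-numbered libraries from their group means correlated at 0.00721, 0.0363 and -0.0571, and those of differently numbered libraries at -0.103 to 0.0712. With 3 libraries a group, these values do not settle whether the libraries were paired.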
